A study of Mus musculus with 20 samples.

Results

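PRMT5 is the main enzyme of mammalian cells that places symmetric dimethyl groups on arginine, and it works in the methylosome, a complex with partner proteins that choose its substrates. The 5 mouse genes described here encode the enzyme and its partners: Prmt5, Wdr77, Clns1a, Riok1 and Coprs. They were taken by name out of 31053 genes in the count tables and by no rule on a measured value, though earlier results of these data were known. WDR77, also called MEP50, is the obligate partner of PRMT5, and the pair forms the catalytic core. Clns1a encodes pICln, the adaptor that brings the Sm proteins of the spliceosome to PRMT5, and RIOK1 competes with pICln for the same site and brings nucleolin instead. COPRS brings PRMT5 to histones. In B cells, PRMT5 is known for its role in germinal centre responses and in lymphoma growth, and its complexes feed the assembly of splicing particles through the SMN complex.

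Single-cell RNA-sequencing (scRNA-seq) was available for 20 libraries from 13 mice: the spleens came from 5 mice of the Eµ-PRMT5 line, 4 of Eµ-TCL1 and 4 that were double transgenic (Eµ-PRMT5/TCL1), and the lymph nodes from 3 of the Eµ-TCL1 and all 4 of the double transgenic mice. In Eµ-PRMT5 mice human PRMT5 cDNA is driven by a VH promoter and the µ enhancer of the heavy chain locus, which is active in B cells. In Eµ-TCL1 mice the human TCL1 oncogene is driven in the same way, and the double transgenic mice have each of these transgenes. The labels give the strain as C57BL/6N for every group, all mice were at the early removal criteria when unselected live cells were taken, and no wild-type mouse was among the libraries. Eµ-PRMT5/TCL1 mice came from a cross of Eµ-PRMT5 with homozygous Eµ-TCL1 mice. The labels give no ages, several founders of Eµ-PRMT5 were made, and 7 mice gave both a spleen and a lymph node. The methods give mixed female and male mice, and sex was not part of the main fits. The mouse number of Eµ-PRMT5 spleen 3 in the labels is one that the methods give to a founder, so this animal may be a founder and not its offspring, and for all other mice with the PRMT5 transgene the labels name no founder. Eµ-PRMT5/TCL1 spleen 1 and lymph node 2 came from the only mouse whose number ends in RT. The meaning of this suffix was not worked out here. The PRMT5 transgene is human and ends in a human β-globin sequence, so the mouse Prmt5 counts below are those of the endogenous gene and do not check whether the transgene was active.

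Positions of the members are given on GRCm38 with the GENCODE vM21 annotation. Prmt5 (ENSMUSG00000023110) lies at chr14:54507187-54517525 on the minus strand and Coprs (ENSMUSG00000031458) at chr8:13884794-13890281 on the minus strand, with no other gene overlapping either. Wdr77 (ENSMUSG00000000561) lies at chr3:105959369-105970037 on the plus strand, where it overlaps Gm42890 on the same strand and Atp5f1 on the other. Clns1a (ENSMUSG00000025439) lies at chr7:97696634-97720796 on the plus strand, opposite the antisense gene Rsf1os2, and Riok1 (ENSMUSG00000021428) at chr13:38036995-38061433 on the plus strand, opposite Cage1. Reads of Wdr77 and Gm42890 may be split between them, so the Wdr77 level is uncertain to that extent.

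The promoter windows of Prmt5, Wdr77 and Clns1a are shown because the level of Prmt5 varied with that of Wdr77 and, less firmly, with that of Clns1a across spleens, as described below. They come from RefSeq on GRCm38.p6 and run from 250 bases before to 50 bases after the start, read 5′ to 3′ on the gene's strand: chr14:54517421-54517720 on the minus strand, chr3:105959248-105959547 on the plus strand and chr7:97696407-97696706 on the plus strand. Capitals mark the E-box CACGTG, a letter string that reads the same on both strands.
Prmt5: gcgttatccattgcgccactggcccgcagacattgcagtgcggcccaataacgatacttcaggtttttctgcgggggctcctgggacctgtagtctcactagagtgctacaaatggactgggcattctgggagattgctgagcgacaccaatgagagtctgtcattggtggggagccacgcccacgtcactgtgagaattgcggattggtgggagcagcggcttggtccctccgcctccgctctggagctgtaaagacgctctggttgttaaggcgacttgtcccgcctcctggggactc
Wdr77: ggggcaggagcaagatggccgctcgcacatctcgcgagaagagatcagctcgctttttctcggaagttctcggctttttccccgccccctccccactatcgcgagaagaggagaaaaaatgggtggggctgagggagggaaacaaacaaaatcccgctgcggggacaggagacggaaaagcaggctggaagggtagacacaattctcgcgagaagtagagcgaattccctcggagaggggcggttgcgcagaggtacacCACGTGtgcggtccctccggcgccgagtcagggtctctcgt
Clns1a: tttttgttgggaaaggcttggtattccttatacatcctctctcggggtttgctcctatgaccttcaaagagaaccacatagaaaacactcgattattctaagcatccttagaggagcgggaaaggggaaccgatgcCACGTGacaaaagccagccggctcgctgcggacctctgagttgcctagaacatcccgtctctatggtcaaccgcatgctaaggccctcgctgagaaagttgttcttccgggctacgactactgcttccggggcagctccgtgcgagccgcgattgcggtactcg
The E-box was found in the windows of Wdr77, at position 10 counted from the start, and Clns1a, at position -114, and in 7.15% of all 32851 promoters of the table. No E-box was found in the windows of Prmt5 or Riok1, and Coprs was not matched. CCAAT, searched on both strands, was found for Prmt5 and in 37.4% of all promoters. GGGCGG was found for Wdr77 and in 35.7% of promoters, and CCGGAAG for Clns1a and in 8.86%. None of the 4 windows held TATAAA, which was in 13.6% of promoters. GC content was 58% for Prmt5, 59.7% for Wdr77, 53.3% for Clns1a and 57.3% for Riok1, against a median of 52.7%. These letters are descriptions of the windows and were not tested against any level.

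Cells were barcodes with at least 1500 UMIs (unique molecular identifiers, 1 for each captured RNA molecule) and at most 10% mitochondrial UMIs, which left 784 to 8632 cells in a library. B cells, plasma cells, T cells and myeloid cells were separated by their UMIs of Cd79a, Cd79b, the Cd3 genes, Jchain, Tyrobp and Fcer1g, and 3.78 to 52.5% of the cells of a library met none of these rules. The classes held their own markers: 7 B-cell markers summed to 1050 to 6880 CPM (UMIs of a gene scaled to a common total per library and class) in spleen B cells, to 11.3 to 50.8 CPM in T cells and to 3.18 to 40.7 CPM in myeloid cells, classes whose rules limit Cd79a and Cd79b, 2 of the 7. In plasma cells, whose rule sets no limit on Cd79a and Cd79b, they still summed to 760 to 5030 CPM. The B class was not free of other markers. In spleen B cells, 9 myeloid markers summed to 210 to 4230 CPM, with a median of 1730 CPM. There 7 plasma-cell markers summed to 605 to 3180 CPM, 4 erythroid markers to 1.15 to 1760 CPM and 7 T-cell markers to 1.76 to 12.5 CPM. Of the cell barcodes of a library, 11 to 13.5% were also found in another library. Eµ-PRMT5 spleen 4 stood apart: its B markers summed to 1050 CPM against 4070 or more in all other libraries, 52.5% of its cells met no class rule, and 74.9% of its B cells were high in the cell cycle lists used below. The B-cell rule leaves out cells with any UMI of Cd3d, Cd3e or Cd3g. A second rule, named below as Cd3g allowed, sets no limit on Cd3g and allows 1 UMI of Cd3d and Cd3e together. It also leaves out cells with a Trbc1 or Trbc2 UMI, and these changes were not tested apart. This rule moved the B-cell counts unevenly between libraries. It gave 2684 B cells instead of 883 in Eµ-PRMT5 spleen 4, with Prmt5 at 36.6 instead of 41 CPM. It gave 3545 instead of 1670 in Eµ-PRMT5/TCL1 lymph node 4 and 705 instead of 302 in Eµ-PRMT5/TCL1 spleen 2. In Eµ-TCL1 spleen 2 it gave 5553 instead of 5533.

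The 5 members were present in B cells of every library. Levels are CPM of the UMIs summed over the cells of a class in a library. Each molecule gives 1 tag at the 3′ end, so CPM of a gene can be compared between cells, and no order between the 5 genes is drawn. Prmt5 was seen in 8.86 to 41.2% of B cells of a library, Wdr77 in 11.6 to 41.6%, Clns1a in 26.1 to 66.9%, Riok1 in 19 to 47% and Coprs in 0.778 to 14%. These shares move with depth, so levels and not shares are compared.

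**Figure D1:**
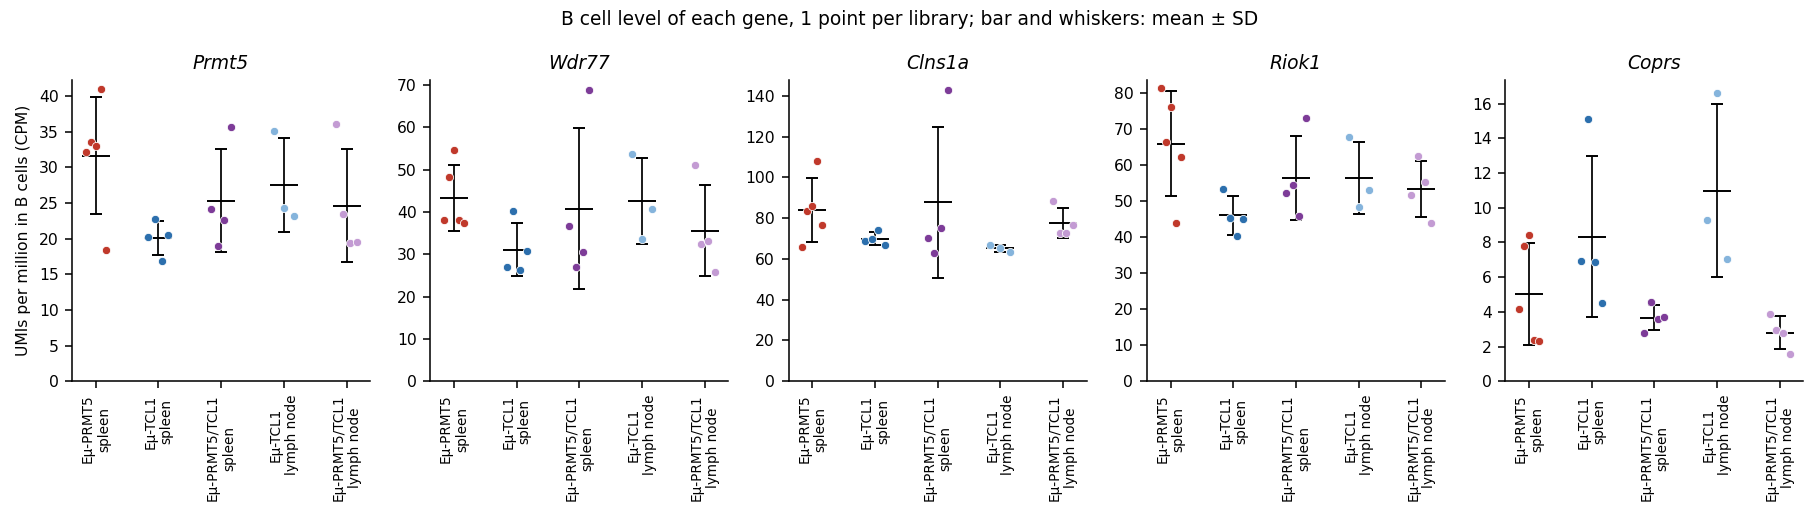
Levels of the 5 genes in B cells, in CPM on the vertical axis, for each library (points) of the 5 groups on the horizontal axis, with the group mean as a bar and its SD as the error bar. Prmt5 in 4 of the 5 Eµ-PRMT5 spleens (32.2 to 41 CPM) lies above all 4 Eµ-TCL1 spleens (16.9 to 22.7 CPM), and Coprs in the Eµ-PRMT5/TCL1 lymph nodes (1.56 to 3.89 CPM) lies below all 3 Eµ-TCL1 lymph nodes (7.06 to 16.6 CPM).

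The first question was whether the endogenous genes differ in B cells between spleens of mice with the PRMT5 transgene, the TCL1 transgene or both. Prmt5, Wdr77 and Riok1 were on average higher and Coprs lower in Eµ-PRMT5 than in Eµ-TCL1 spleens, and none of the 5 members passed the test. Across all genes, 0.137% of 11673 were called between these groups, 0.0171% between Eµ-PRMT5/TCL1 and Eµ-TCL1 and 0.0514% between Eµ-PRMT5/TCL1 and Eµ-PRMT5. A gene was called when its Benjamini-Hochberg adjusted p over all genes was under 0.05 in edgeR's quasi-likelihood test on summed counts. Each library is 1 mouse in the spleen, so p-values measure the spread between mice.

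Prmt5 in B cells measured 32.2, 33.5, 33, 41 and 18.4 CPM in Eµ-PRMT5 spleens 1 to 5. The 4 Eµ-TCL1 spleens measured 20.2, 22.7, 16.9 and 20.5 CPM, and the 4 Eµ-PRMT5/TCL1 spleens 24.1, 19, 22.6 and 35.6 CPM. Of the Eµ-PRMT5 spleens, 4 were above every Eµ-TCL1 spleen, and Eµ-PRMT5 spleen 5 was within their range. The means were 31.6 ± 8.18 (SD, n = 5), 20.1 ± 2.38 (SD, n = 4) and 25.3 ± 7.2 CPM (SD, n = 4). Eµ-PRMT5 spleens held 1.55-fold more Prmt5 than Eµ-TCL1 spleens (log2 difference 0.63 ± 0.24, SE, 95% interval 0.11 to 1.14), with an edgeR adjusted p of 0.188 and an unadjusted p of 0.0203. By edgeR, 2125 of 11673 genes (18.2%) had an unadjusted p under 0.05 between these groups. Without Eµ-PRMT5 spleen 4 the log2 difference was 0.36, with an edgeR adjusted p of 0.212, and without Eµ-PRMT5 spleen 5 it was 0.76, with an edgeR adjusted p of 0.0893. For double transgenic spleens it was 0.21 against Eµ-TCL1 (interval -0.32 to 0.75) and -0.42 against Eµ-PRMT5 (interval -0.93 to 0.09), the latter -0.15 without Eµ-PRMT5 spleen 4 (edgeR adjusted p = 0.683).

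Wdr77, the partner without which PRMT5 has little activity, measured 38.2, 48.3, 54.7, 38.2 and 37.4 CPM in the Eµ-PRMT5 spleens. The Eµ-TCL1 spleens measured 27, 40.2, 26.4 and 30.9 CPM, and the Eµ-PRMT5/TCL1 spleens 36.8, 27.1, 30.6 and 68.8 CPM. The first 2 groups overlapped only through Eµ-TCL1 spleen 2, and Eµ-PRMT5/TCL1 spleen 4 held the highest value of all. The log2 difference between Eµ-PRMT5 and Eµ-TCL1 was 0.41 ± 0.20 (SE, interval -0.03 to 0.85, edgeR adjusted p = 0.304), and 0.34 without Eµ-PRMT5 spleen 4. It was 0.24 (interval -0.22 to 0.70) for Eµ-PRMT5/TCL1 against Eµ-TCL1 and -0.17 (interval -0.61 to 0.27) for Eµ-PRMT5/TCL1 against Eµ-PRMT5. Without Eµ-PRMT5/TCL1 spleen 4 these were 0.02 and -0.37, and the last was -0.10 without Eµ-PRMT5 spleen 4 and 0.12 in B cells low in the cell cycle lists described below, so that it carries no direction.

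Clns1a, the Sm protein adaptor, measured 69, 69.7, 74.1 and 66.8 CPM in the Eµ-TCL1 spleens, a narrow range. The Eµ-PRMT5 spleens ranged from 65.6 to 108 CPM, and the Eµ-PRMT5/TCL1 spleens measured 70.1, 62.9, 75 and 143 CPM. The groups overlapped, and the 2 highest values were those of Eµ-PRMT5/TCL1 spleen 4 and Eµ-PRMT5 spleen 4. Log2 differences were 0.24 (interval -0.27 to 0.75), 0.18 (interval -0.35 to 0.71) and -0.06 (interval -0.57 to 0.44) in the same order of comparisons. None of them carries a direction. The first was -0.02 without Eµ-PRMT5 spleen 4 and -0.01 with only the B cells low in those lists. The second was -0.01 without Eµ-PRMT5/TCL1 spleen 4, and the last was 0.20 without Eµ-PRMT5 spleen 4.

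Riok1, which encodes the kinase that brings nucleolin to PRMT5 and also acts in small ribosomal subunit maturation, measured 81.4, 66.2, 75.9, 43.8 and 62.1 CPM in the Eµ-PRMT5 spleens and 53.2, 45.2, 40.4 and 45.1 CPM in the Eµ-TCL1 spleens. Here Eµ-PRMT5 spleen 4 was the lowest of its group and the only Eµ-PRMT5 spleen within the range of the Eµ-TCL1 spleens. The log2 difference was 0.44 ± 0.14 (SE, interval 0.13 to 0.75), with an edgeR adjusted p of 0.145 and a DESeq2 adjusted p of 0.0197. Without Eµ-PRMT5 spleen 4 it was 0.46, with an edgeR adjusted p of 0.0653. DESeq2 called 635 genes in this comparison, against 16 by edgeR. Eµ-PRMT5/TCL1 spleens measured 52.1, 54.5, 45.7 and 73 CPM, with a log2 difference of 0.17 (interval -0.15 to 0.50) against Eµ-TCL1 and -0.26 (interval -0.57 to 0.04) against Eµ-PRMT5.

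Coprs, the histone adaptor, rested on few UMIs, 6 to 542 in the B cells of a library. It measured 4.17, 7.81, 8.42, 2.38 and 2.3 CPM in Eµ-PRMT5 spleens, 6.91, 15.1, 6.85 and 4.49 CPM in Eµ-TCL1 spleens and 2.8, 4.57, 3.61 and 3.68 CPM in Eµ-PRMT5/TCL1 spleens. Eµ-TCL1 spleen 2 was far above the rest of its group, and the groups overlapped. The log2 difference against Eµ-TCL1 was -0.87 ± 0.40 (SE, interval -1.74 to -0.01, edgeR adjusted p = 0.27) in Eµ-PRMT5 spleens. Leaving out Eµ-TCL1 spleen 2 gave -0.43, and leaving out Eµ-PRMT5 spleen 4 gave -0.76. In Eµ-PRMT5/TCL1 spleens it was -1.31 ± 0.43 (SE, interval -2.24 to -0.38), with an unadjusted p of 0.00952 and an edgeR adjusted p of 0.782, and -0.86 without Eµ-TCL1 spleen 2. In that edgeR comparison 629 of 11673 genes (5.39%) had an unadjusted p under 0.05. Double transgenic against Eµ-PRMT5 spleens gave -0.43 (interval -1.33 to 0.46), or -0.27 without Eµ-PRMT5 spleen 2 and -0.20 without Eµ-PRMT5 spleen 3.

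Gene lists around the methylosome were read beside its members. None of 19 genes of the Sm ring and SMN complex, 11 genes of the methyl donor and methylthioadenosine cycle and 10 genes of other PRMT5 substrates and readers of symmetric dimethylarginine was called in any of these 3 comparisons. Between Eµ-PRMT5 and Eµ-TCL1 spleens their median log2 differences were 0.39, 0.52 and 0.37, against 0.04 over all genes. For Eµ-PRMT5/TCL1 against Eµ-TCL1 they were -0.05, with 8 of 19 genes above 0, 0.33 and 0.25, and against Eµ-PRMT5 they were -0.34, -0.10 and -0.13, with -0.06 over all genes. Between Eµ-PRMT5 and Eµ-TCL1 all 18 genes of a DNA synthesis (S phase) list were also above 0, with a median of 0.88 and none called, and 16 of 21 genes of a G2/M list, with a median of 0.58 and none called. In B cells low in both lists the difference of Prmt5 between Eµ-PRMT5 and Eµ-TCL1 was 0.33, that of Wdr77 0.18, that of Riok1 0.41 and that of Coprs -0.99.

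**Figure D2:**
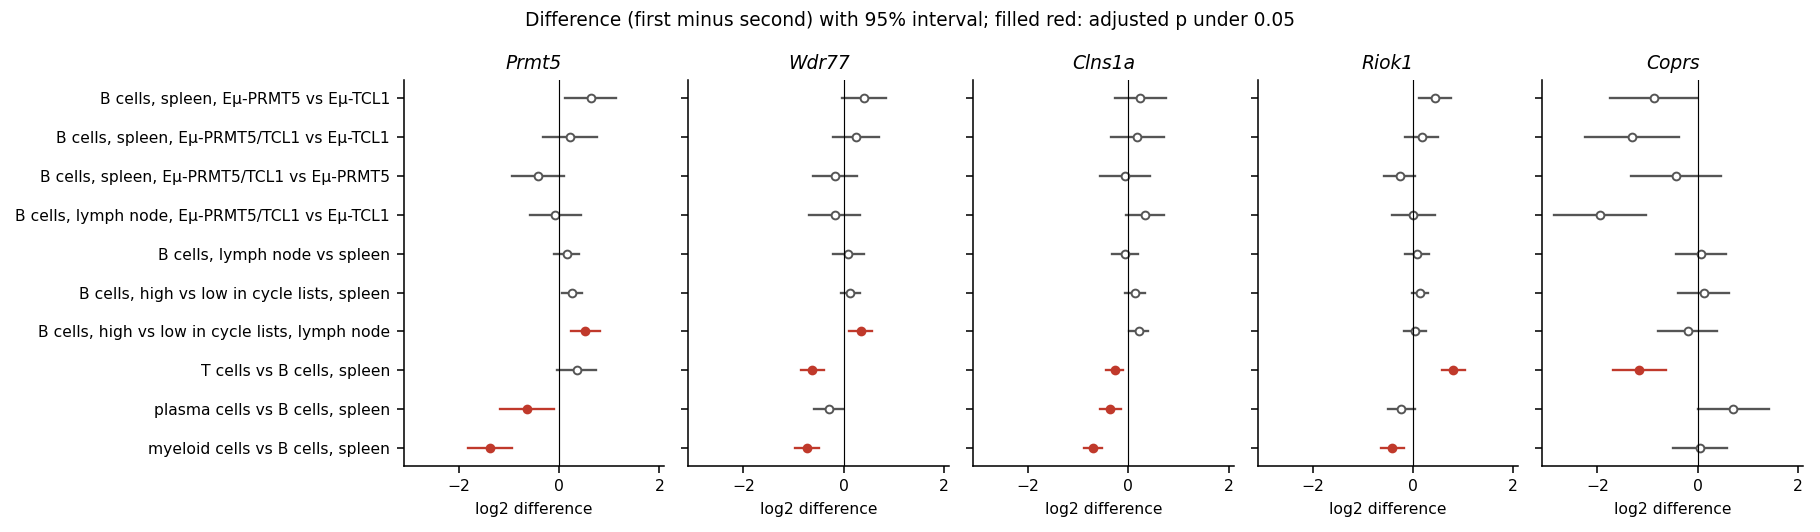
Log2 differences of the 5 genes in each comparison (points) with their 95% intervals (bars) from edgeR's quasi-likelihood fit, with the comparisons named on the vertical axis, a line at 0 and filled red points where the adjusted p was under 0.05. In the genotype comparisons no gene was called, while in myeloid against B cells 4 genes lie well below 0, from -0.41 for Riok1 to -1.38 for Prmt5.

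In lymph nodes the question was whether adding the PRMT5 transgene to TCL1 goes with a difference in B cells. Coprs was lower and Clns1a higher in Eµ-PRMT5/TCL1 lymph nodes without overlap of the groups, which held for 6.33% of all 10929 genes tested, and none of the 5 members was called by edgeR. Of all genes tested, 0% were called by edgeR, 797 had an unadjusted p under 0.05, and DESeq2 called 59. Coprs measured 9.28, 16.6 and 7.06 CPM in Eµ-TCL1 lymph nodes and 3.89, 2.94, 2.76 and 1.56 CPM in Eµ-PRMT5/TCL1 lymph nodes. Every Eµ-PRMT5/TCL1 node was below every Eµ-TCL1 node. The log2 difference was -1.95 ± 0.40 (SE, interval -2.87 to -1.03), 0.259 of the Eµ-TCL1 level, with an unadjusted p of 0.0011, an edgeR adjusted p of 0.354 and a DESeq2 adjusted p of 0.0227. The exact two-sided permutation p was 0.0571, the smallest that 4 against 3 libraries allow. Leaving out each library in turn gave -2.17 to -1.46.

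The other members were closer. Clns1a measured 66.9, 65.5 and 63.4 CPM in Eµ-TCL1 and 88.5, 72.8, 72.8 and 76.8 CPM in Eµ-PRMT5/TCL1 lymph nodes, so that these groups did not overlap either, at the same share of 6.33% of all genes. Its log2 difference was 0.33 ± 0.16 (SE, interval -0.04 to 0.71, edgeR adjusted p = 0.74), and its exact permutation p was also 0.0571. Prmt5 measured 35.1, 24.3 and 23.2 CPM against 36.1, 23.5, 19.4 and 19.5 CPM. Each group held 1 node well above the rest, and the log2 difference was -0.08 (interval -0.59 to 0.43). It was -0.18 (interval -0.69 to 0.32) for Wdr77 and 0.01 (interval -0.41 to 0.43) for Riok1. The signs of Prmt5 and Riok1 turned under other settings and carry no direction. Over the 5 groups the mean Prmt5 level in B cells ran from 31.6 CPM in Eµ-PRMT5 spleens over 27.6 ± 6.57 (SD, n = 3) in Eµ-TCL1 lymph nodes, 25.3 in Eµ-PRMT5/TCL1 spleens and 24.6 ± 7.89 (SD, n = 4) in Eµ-PRMT5/TCL1 lymph nodes to 20.1 CPM in Eµ-TCL1 spleens. Each neighbour in this order differed by less than the larger of the 2 SDs.

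Spleen and lymph node of the same 7 mice were compared with the mouse as a block. None of the 5 members was called, and 0.185% of 12453 genes were. Prmt5 was higher in the node than in the spleen of all 3 Eµ-TCL1 mice, by the widest margin in the mouse with 35.1 against 20.2 CPM. In the Eµ-PRMT5/TCL1 mice the pairs were 36.1 against 35.6, 23.5 against 24.1, 19.4 against 22.6 and 19.5 against 19 CPM, with no common direction. The log2 difference over all 7 mice was 0.15 (interval -0.11 to 0.40) for Prmt5, 0.09 (interval -0.21 to 0.40) for Wdr77, -0.06 (interval -0.33 to 0.20) for Clns1a, 0.08 (interval -0.16 to 0.32) for Riok1 and 0.06 (interval -0.44 to 0.56) for Coprs. The signs of Wdr77, Clns1a and Coprs turned under other settings and carry no direction. The Eµ-TCL1 mouse with the highest Coprs in spleen B cells (15.1 CPM) also had the highest in lymph node B cells (16.6 CPM), while its T cells measured 2.76 and 2.14 CPM. Its myeloid cells measured 15.7 CPM in the spleen, on 6 UMIs, and its plasma cells 11.6 CPM in the lymph node. The contrast is thus one between B and T cells only.

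**Figure D3:**
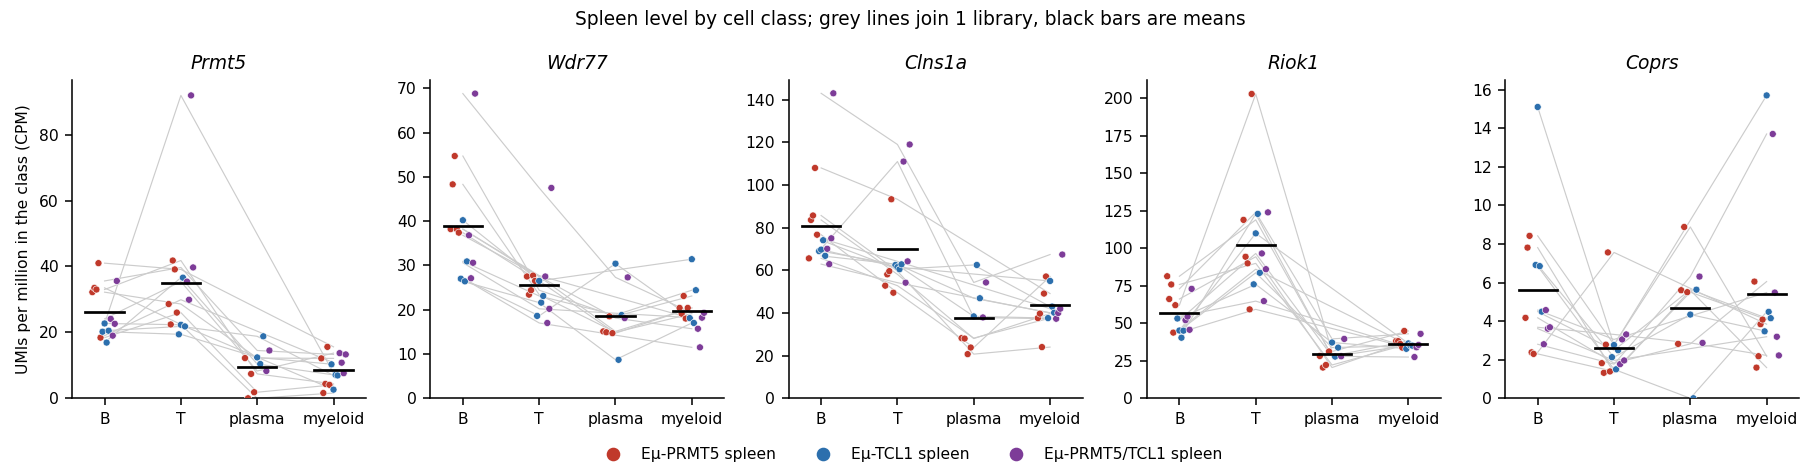
Levels of the 5 genes in CPM (vertical axis) in B, T, plasma and myeloid cells of the spleens, with a point for each library that held at least 20 cells of the class, a black bar for the mean and grey lines that join the classes of 1 library. Prmt5 was at 26.1 CPM in B cells, 35 in T cells, 9.54 in plasma cells and 8.47 in myeloid cells.

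Several members passed the test between cell classes of the spleen. T cells held more Riok1 and less Wdr77, Clns1a and Coprs than B cells, myeloid cells held less of 4 members, and plasma cells held less Clns1a and, less firmly, Prmt5. Classes were compared within libraries. Called genes were common here: 29.4% of 12434 genes were higher and 29.2% lower in T than in B cells, 16% higher and 26% lower in plasma cells, and 31.4% higher and 40.3% lower in myeloid cells. A call of 1 member therefore says little by itself, and sizes and counts of libraries are given with it.

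Prmt5 averaged 26.1 ± 7.85 CPM in B cells, 35 ± 18.7 in T cells, 9.54 ± 5.94 in plasma cells and 8.47 ± 4.53 in myeloid cells (SD, n = 13, or n = 9 for plasma cells). B and T cells did not differ beyond their spread, with T cells higher in 8 of 13 spleens and a log2 difference of 0.35 (interval -0.04 to 0.73, edgeR adjusted p = 0.121). It was 0.17 (edgeR adjusted p = 0.472) without Eµ-PRMT5/TCL1 spleen 3, whose T cells held 91.9 CPM. In myeloid cells Prmt5 was lower in 13 of 13 spleens, at 0.385 of the B-cell level, with a log2 difference of -1.38 ± 0.22 (SE) and an edgeR adjusted p of 5.53e-07. In plasma cells it was lower in 9 of 9 spleens, with a log2 difference of -0.64 ± 0.26 (SE, edgeR adjusted p = 0.0458). This call was lost by DESeq2, where the difference was -0.51 with an adjusted p of 0.113, and when immunoglobulin genes were left out, where it was -0.61 with an edgeR adjusted p of 0.0583. Leaving out a spleen moved the edgeR adjusted p between 0.0255 and 0.111, with the highest value without Eµ-PRMT5 spleen 2, and lost the call for 9 of the 13 spleens (all 5 Eµ-PRMT5 spleens, Eµ-TCL1 spleens 2 and 3, and Eµ-PRMT5/TCL1 spleens 1 and 4). In Eµ-PRMT5 spleen 2 no Prmt5 UMI was found in 20 plasma cells, which allows up to 5.6 CPM, and in Eµ-PRMT5 spleen 5 there was 1 UMI. Such limits cover counting error only.

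Immunoglobulin transcripts took 21.8 to 60.8% of the UMIs of spleen plasma cells, which lowers the CPM of every other gene. Without them, Prmt5 averaged 15.9 CPM in plasma cells against 26.7 CPM in B cells of the same 9 spleens, Wdr77 32.3 against 42, Clns1a 64.5 against 83.7 and Riok1 51.6 against 62.5, while Coprs was higher, at 8.82 against 5.4. Prmt5 was then lower in 8 of 9 spleens and Coprs higher in 7 of 9. The median over all genes was a log2 difference of -0.21 between plasma and B cells. Against that, Clns1a in plasma cells was at -0.36 ± 0.10 (SE, edgeR adjusted p = 0.00479), Wdr77 at -0.30 (edgeR adjusted p = 0.0911), Riok1 at -0.23 (edgeR adjusted p = 0.18) and Coprs at 0.71 (edgeR adjusted p = 0.103). Wdr77 was called without Eµ-TCL1 spleen 1 (-0.44, edgeR adjusted p = 0.0162) and Coprs without Eµ-TCL1 spleen 3 (0.94, edgeR adjusted p = 0.0243). Leaving out barcodes of high UMI count moved the edgeR adjusted p of Clns1a to 0.1.

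Wdr77 averaged 38.8 ± 12.3 CPM in B cells (SD, n = 13), 25.5 ± 7.5 in T cells (SD, n = 13), 18.5 ± 6.65 in plasma cells (SD, n = 9) and 19.7 ± 4.75 in myeloid cells (SD, n = 13). It was lower than in B cells in all 13 spleens both in T cells, at 0.648 of the B-cell level (log2 difference -0.63 ± 0.11, SE, edgeR adjusted p = 1.28e-05), and in myeloid cells, at 0.6 (log2 difference -0.74 ± 0.12, SE, edgeR adjusted p = 1.36e-06). Wdr77 was thus called between T and B cells where Prmt5 was not, and the difference between the 2 genes was not tested.

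Clns1a averaged 80.8 ± 22.2 CPM in B cells, 69.9 ± 22.5 in T cells and 43.8 ± 11 in myeloid cells (SD, n = 13). It was lower than in B cells in 12 of 13 spleens in T cells (log2 difference -0.27 ± 0.08, SE, edgeR adjusted p = 0.00646) and in 13 of 13 in myeloid cells, at 0.616 of the B-cell level (log2 difference -0.70 ± 0.09, SE, edgeR adjusted p = 7.61e-09). Riok1 went the other way in T cells. It averaged 102 ± 36.9 CPM there against 56.8 ± 13.6 in B cells (SD, n = 13) and was higher in 13 of 13 spleens, by 1.74-fold (log2 difference 0.80 ± 0.11, SE, edgeR adjusted p = 8.84e-08). The highest value was 203 CPM in Eµ-PRMT5 spleen 5, and the other spleens ranged from 59.3 to 124 CPM. In myeloid cells Riok1 was at 36.2 ± 4.36 CPM (SD, n = 13), 0.753 of the B-cell level (log2 difference -0.41 ± 0.11, SE, edgeR adjusted p = 0.00169) and lower in 13 of 13 spleens.

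Coprs averaged 5.62 ± 3.51 CPM in B cells and 2.6 ± 1.62 in T cells (SD, n = 13) and was lower in T cells in 12 of 13 spleens, at 0.447 of the B-cell level (log2 difference -1.16 ± 0.26, SE, edgeR adjusted p = 0.000161). Eµ-PRMT5 spleen 4, at 7.56 CPM in T cells against 2.38 CPM in B cells, was the exception. Coprs did not differ detectably between myeloid and B cells (log2 difference 0.04, edgeR adjusted p = 0.9), and its sign turned under other settings. The calls of Wdr77, Clns1a, Riok1 and Coprs between T and B cells, and those of Prmt5, Wdr77, Clns1a and Riok1 between myeloid and B cells, held when each of the 13 spleens was left out in turn. In lymph nodes, with no test, Riok1 was higher in T than in B cells in 6 of 7 libraries, and Wdr77 and Clns1a were lower in 7 of 7. Coprs was lower there in 4 of 7, with a median of 96.6% of the B-cell level. Prmt5 was higher in T cells in 5 of 7, with means of 46.9 against 25.9 CPM and a median of 149% of the B-cell level, and the mean held the 140 CPM of Eµ-PRMT5/TCL1 lymph node 1.

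Free RNA from B cells can place UMIs in other classes. The summed B-cell markers, at 1050 to 6880 CPM in spleen B cells, were at 3.18 to 40.7 CPM in myeloid cells, while Prmt5 in myeloid cells stood at a median of 37.4% of its B-cell level, Wdr77 at 53.3%, Clns1a at 55.9% and Riok1 at 62.4%. The myeloid rule itself limits 2 of the 7 markers, and the part of free RNA in these levels was not tested. Markers of other classes were also counted in B cells. Myeloid markers summed to 210 to 4230 CPM in spleen B cells, against 26000 to 169000 CPM in spleen myeloid cells. Their source in B cells was not tested.

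The lists around the methylosome were counted between classes as well, beside the shares of all genes given above. In myeloid cells, where 40.3% of all genes were lower, 11 of 19 Sm and SMN genes were lower than in B cells and 1 was higher, with a median log2 difference of -0.30 against -0.14 over all genes; Snrpd2 and Snrpf, which encode Sm ring proteins, were at -0.64 and -0.75. Of the methyl donor and methylthioadenosine genes, 7 of 11 were lower, among them Mri1 at -1.61, Adi1 at -1.92 and Srm, which encodes spermidine synthase, at -1.91. Of the substrates and readers, 9 of 10 were lower and 1 was higher, led by Hnrnpa1 at -1.43 and Ncl, which encodes nucleolin, at -1.52. In the same comparison all 21 genes of the G2/M list were higher in myeloid cells, with a median of 2.37, as were 8 of 18 of the S phase list.

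In T cells 6 of 19 Sm and SMN genes were lower and 1 was higher, with Gemin6 at -0.74 and Lsm11 at 0.60. Of the methyl donor and methylthioadenosine genes, 5 were lower and 4 higher, with Srm at -1.41, Apip at -1.26 and Mat2b at 0.46. Of the 10 substrates and readers, 3 were lower and none higher, with Hnrnpa1 at -0.96. The 6 of 19 and 3 of 10 lie near the 29.2% of all genes that were lower in T cells. In plasma cells, where 26% of all genes were lower, 8 of 19 Sm and SMN genes were lower and none higher, with Snrpf at -0.89, and 8 of 10 substrates and readers were lower, with Srsf1 at -0.86. The 1 substrate or reader that was higher was Snd1, a Tudor protein that reads symmetric dimethylarginine, at 1.45. Of the 11 methyl donor and methylthioadenosine genes, 4 were lower in plasma cells, among them Enoph1 at -1.01 and Sms, which encodes spermine synthase, at -0.92, and 1 was higher, Srm at 1.22. All these named genes passed the edgeR test with adjusted p-values of 0.000325 or less.

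**Figure D4:**
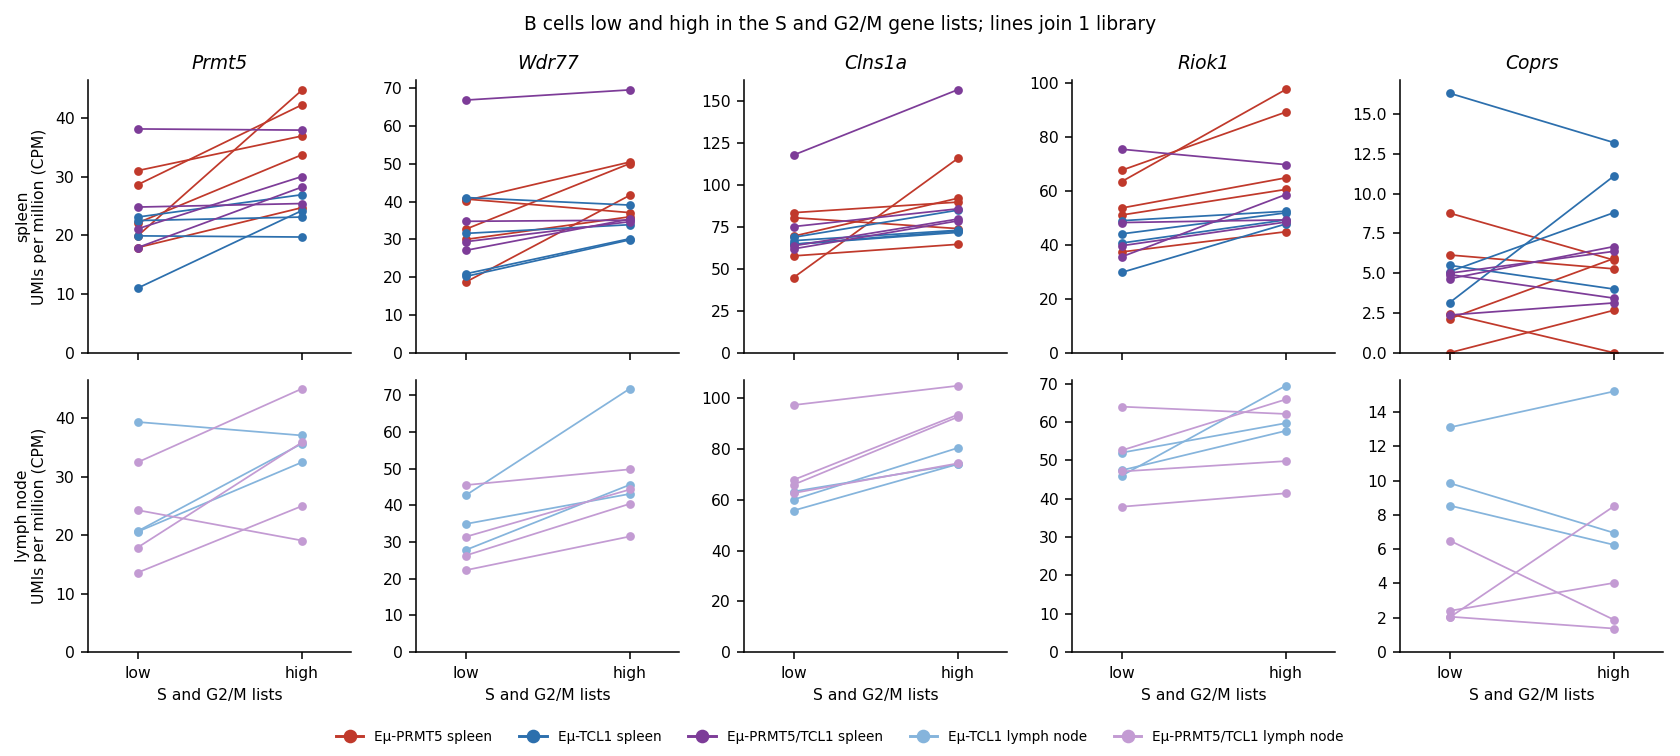
Levels in CPM in B cells low (left) and high (right) in the cell cycle lists, joined by a line for each library, in spleens and lymph nodes. In lymph nodes the line of Wdr77 rises in 7 of 7 libraries and that of Prmt5 in 5 of 7.

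PRMT5 is known as an enzyme of growing cells, so B cells were compared by cell cycle genes within each library. A cell was high when 18 S phase and 21 G2/M genes together gave at least 3 UMIs and 10 per 10000, and low when they gave at most 3 per 10000. High cells made up 5.1 to 74.9% of the B cells of a library. After each cell was thinned to 1500 UMIs the share was 12.5 to 76.3%, but with another cut, at least 2 UMIs of the lists. Most high cells were led by the S phase genes, and with the G2/M list alone the share was 0.704 to 62.1%. The split is a range cut from a score, not a cell type, and 29 to 497 B cells of a library lay within 2 per 10000 of the upper limit. In spleens 10.9% of 10841 genes were higher and 12.9% lower in high cells, and in lymph nodes 11.5% of 10235 were higher and 13.2% lower.

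In lymph nodes Prmt5 and Wdr77, the catalytic core, were higher in B cells high in the cycle lists, and the other 3 members did not pass the test. Differences between the genes were not tested. Prmt5 measured 37.1, 35.7 and 32.5 CPM in high and 39.4, 20.7 and 20.6 CPM in low cells of the Eµ-TCL1 nodes. In the Eµ-PRMT5/TCL1 nodes it measured 45.1, 35.9, 19.1 and 25 CPM in high and 32.5, 17.9, 24.3 and 13.6 CPM in low cells. High cells were above low cells in 5 of 7 nodes and below in Eµ-TCL1 lymph node 1 and Eµ-PRMT5/TCL1 lymph node 3. The log2 difference was 0.52 ± 0.14 (SE, interval 0.23 to 0.81), or 1.43-fold, with an edgeR adjusted p of 0.0089. It was 0.41 with an edgeR adjusted p of 0.0763 without Eµ-PRMT5/TCL1 lymph node 2, and 0.43 with an edgeR adjusted p of 0.315 without the library as a block.

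Wdr77 measured 71.8, 45.6 and 43.1 CPM in high and 42.7, 27.8 and 34.9 CPM in low cells of the Eµ-TCL1 nodes. In the Eµ-PRMT5/TCL1 nodes it measured 49.8, 44.3, 40.4 and 31.5 CPM in high and 45.5, 31.4, 26.3 and 22.3 CPM in low cells. Every node had the higher CPM in high cells, with a median of 141% of the level in low cells. The log2 difference also carries edgeR's TMM scaling between sums, which CPM does not, and was smaller for Wdr77. The log2 difference was 0.34 ± 0.11 (SE, interval 0.11 to 0.56), or 1.26-fold, with an edgeR adjusted p of 0.0286, and this p rose to 0.087 without Eµ-PRMT5/TCL1 lymph node 2 and to 0.0644 without Eµ-TCL1 lymph node 2. With the G2/M list alone it was 0.18 (edgeR adjusted p = 0.361), with high cells above low cells in 4 of 6 nodes, and Prmt5 was 0.55 (edgeR adjusted p = 0.00898), higher in 5 of 6. Clns1a was also higher in 7 of 7 nodes, at 0.21 (interval 0.02 to 0.40, edgeR adjusted p = 0.0938), and was called without Eµ-PRMT5/TCL1 lymph node 3 (0.26, edgeR adjusted p = 0.0362). Riok1 was at 0.04 (edgeR adjusted p = 0.808) and Coprs at -0.20 (edgeR adjusted p = 0.66).

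In spleens none of the 5 members was called. Prmt5 averaged 30.6 CPM in high and 22.9 CPM in low cells and was higher in high cells in 11 of 13 spleens, with a log2 difference of 0.26 ± 0.10 (SE, interval 0.05 to 0.46, edgeR adjusted p = 0.0618). This value lay near the threshold: DESeq2 gave 0.27 with an adjusted p of 0.0466, and leaving out a spleen moved the edgeR adjusted p between 0.0319 and 0.122, with a call without Eµ-PRMT5 spleen 3 (0.31) and without Eµ-TCL1 spleen 4 (0.29). Without Eµ-PRMT5 spleen 4 it was 0.22, with an edgeR adjusted p of 0.105. Prmt5 was also called by edgeR without immunoglobulin genes and with Cd3g allowed in B cells. Wdr77 was at 0.13 (edgeR adjusted p = 0.313), Clns1a at 0.13 (edgeR adjusted p = 0.33), Riok1 at 0.14 (edgeR adjusted p = 0.197) and Coprs at 0.12 (edgeR adjusted p = 0.775), the last 2 turning in sign with thinned cells. High cells had the higher CPM in 11 of 13 spleens for Wdr77, in 12 for Clns1a and in 12 for Riok1. These counts and means are of CPM, without edgeR's TMM scaling, and run above the fitted differences. By CPM the medians were 120%, 114% and 121% of low cells, against 1.09-fold, 1.1-fold and 1.1-fold in the fit. Prmt5 was at 44.7 against 19.9 CPM in Eµ-PRMT5 spleen 4, 42.2 against 28.6 CPM in Eµ-PRMT5 spleen 2 and 24.2 against 11 CPM in Eµ-TCL1 spleen 3. The 2 spleens without a rise were Eµ-TCL1 spleen 4, with 19.7 against 19.9 CPM, and Eµ-PRMT5/TCL1 spleen 4, with 37.9 against 38.1 CPM.

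Of the Sm and SMN genes, 9 of 19 in spleens and 14 of 19 in lymph nodes were higher in high cells, and none was lower. Their median log2 differences were 0.36 and 0.44, against -0.04 and -0.07 over all genes. Snrpd1, an Sm protein that PRMT5 methylates, was at 0.64 ± 0.13 in spleens and 0.85 ± 0.08 in lymph nodes (SE), and Gemin6 of the SMN complex at 0.94 ± 0.20 and 1.60 ± 0.15 (SE). Of the 11 methyl donor and methylthioadenosine genes, 2 were higher and none lower in spleens, and 3 were higher and 1 lower in lymph nodes, with medians of -0.03 and 0.15. Ahcy, which clears the S-adenosylhomocysteine that methyltransferases leave, was at 0.84 ± 0.09 and 1.12 ± 0.10 (SE). Mat2b was the lower one, at -0.31 ± 0.10 (SE, edgeR adjusted p = 0.0339). The 10 substrates and readers went both ways, with 1 higher and 1 lower in spleens and 4 higher and 1 lower in lymph nodes. The lower one was Rps10, which encodes a ribosomal substrate of PRMT5, in both tissues, at -0.36 ± 0.08 and -0.33 ± 0.05 (SE). Srsf1 was higher in spleens, at 0.30 ± 0.09 (SE, edgeR adjusted p = 0.0188), and Ncl at 0.45 ± 0.07, Hnrnpa1 at 0.31 ± 0.08 and Npm1 at 0.25 ± 0.07 (SE) were higher in lymph nodes. Where no p is given, the edgeR adjusted p-values of these named genes were 0.00681 or less.

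Whether genotype differences depend on the class or the cycle state was tested as an interaction. None of the 5 members was called in any of the 4 interactions. Of 13281 genes, 0.0753% were called in B minus T cells when Eµ-PRMT5 was set against Eµ-TCL1 and 0.00753% when the double transgenic group was, while 0% of 10841 were called in either interaction with the cycle state by edgeR, with 587 and 184 at an unadjusted p under 0.05. DESeq2 was not run on interactions. The B minus T value of Coprs was -1.24 ± 0.61 (SE, interval -2.52 to 0.05, edgeR adjusted p = 0.802) for Eµ-PRMT5/TCL1 against Eµ-TCL1. That of Prmt5 was 0.15 for Eµ-PRMT5 and -0.55 for the double transgenic group. The high minus low value of Prmt5 differed by 0.24 (interval -0.28 to 0.76) and 0.05 (interval -0.48 to 0.57) between the same groups.

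The µ enhancer drives transgenes mainly in B cells, so T cells served as a comparison for the genotype differences. None of the 5 members was called between genotypes in spleen T cells, where 0.044% of 11362 genes were called between Eµ-PRMT5 and Eµ-TCL1 and 0% for double transgenic spleens against Eµ-TCL1. In the latter edgeR comparison 893 genes had an unadjusted p under 0.05 and DESeq2 called 3. Prmt5 in T cells measured 28.6, 22.4, 41.8, 39.1 and 26 CPM in Eµ-PRMT5 spleens. Values of Eµ-TCL1 spleens were 19.4, 22.3, 36.6 and 21.8 CPM, and those of double transgenic spleens 35.4, 29.9, 91.9 and 39.7 CPM. Eµ-PRMT5/TCL1 spleen 3 was far above every other spleen. The log2 difference of Eµ-PRMT5/TCL1 against Eµ-TCL1 was 0.89 ± 0.36 (SE, interval 0.11 to 1.67, edgeR adjusted p = 0.629) and fell to 0.30 without that spleen. For Eµ-PRMT5 against Eµ-TCL1 it was 0.33 (edgeR adjusted p = 0.848). In the same T cells all 18 S phase and all 21 G2/M genes were above 0 in Eµ-PRMT5/TCL1 against Eµ-TCL1, with medians of 1.48 and 1.84 and none called. Their part in the Prmt5 level was not tested, and the share of T cells high in the cycle lists was 24.9% in that spleen and 60.6% in spleen 4 of the same group.

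**Figure D5:**
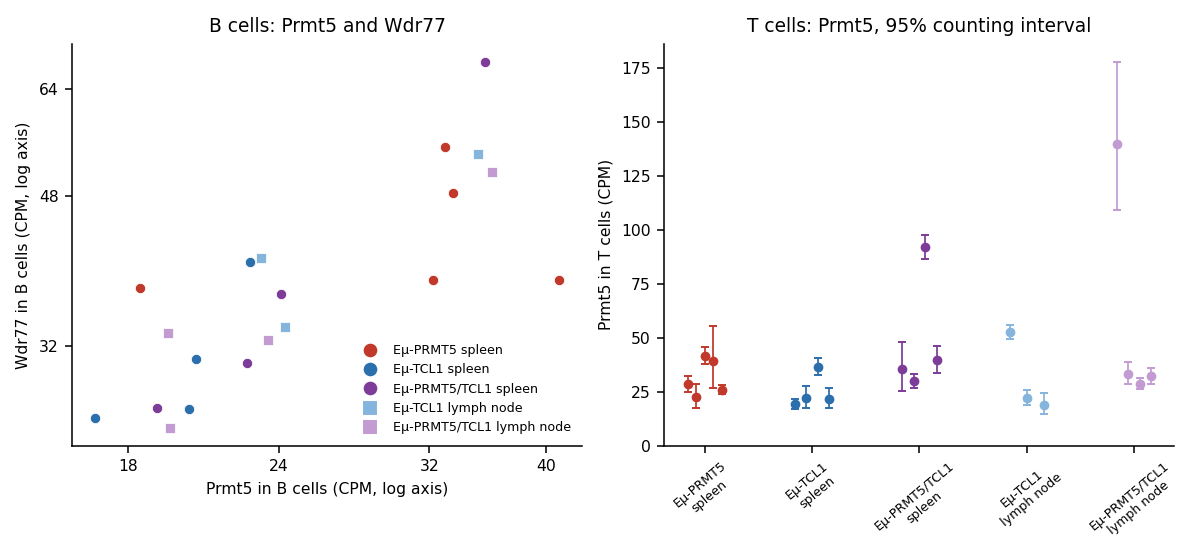
Left, Wdr77 against Prmt5 in B cells, both in CPM on log axes, with a circle for each of the 13 spleens and a square for each of the 7 lymph nodes, coloured by group. Right, Prmt5 in T cells of each library in CPM with 95% Poisson intervals, where Eµ-PRMT5/TCL1 spleen 3 (91.9 CPM) and Eµ-PRMT5/TCL1 lymph node 1 (140 CPM) stand above the others.

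Across the B cells of 13 spleens, members of the core varied together. Prmt5 with Wdr77 gave a Pearson r of 0.75 (permutation p = 0.00294, adjusted over 9 relations 0.0132) and a Spearman rho of 0.79 (adjusted permutation p = 0.018). Within groups r was 0.66 (permutation p = 0.0164), and without Eµ-PRMT5 spleen 4 and Eµ-PRMT5/TCL1 spleen 4, the farthest from the median, it was 0.82. In B cells low in the cycle lists r was 0.65, with an adjusted permutation p of 0.0869. Prmt5 with Clns1a gave an r of 0.67 (adjusted permutation p = 0.0185) and a rho of 0.57 (adjusted permutation p = 0.143), and without the same 2 spleens r was 0.43, so this relation rests on them in part. Prmt5 with Riok1 gave an r of 0.49 (adjusted permutation p = 0.156) and a rho of 0.33, with an r of 0.75 without the same 2 spleens and 0.16 within groups, and Prmt5 with Coprs an r of -0.11 (adjusted permutation p = 0.82) and a rho of -0.04.

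Prmt5 also varied with the share of B cells high in the cycle lists, with an r of 0.72 (permutation p = 0.0007, adjusted 0.0063), a rho of 0.60 (adjusted permutation p = 0.142), 0.67 within groups and 0.50 without the same 2 spleens. The r was 0.72 with thinned cells, 0.49 with the G2/M list alone (adjusted permutation p = 0.142) and 0.20 when Prmt5 was measured in low cells only (adjusted permutation p = 0.634). Clns1a gave 0.71 with the share (adjusted permutation p = 0.0565) and 0.08 without the 2 spleens, so this value rests on them. Wdr77 gave 0.32, Riok1 0.04 and Coprs -0.40, none past the threshold (rho 0.32, 0.29 and -0.01). Without the 2 spleens these r were 0.10, 0.59 and 0.05, and within groups 0.17, -0.27 and -0.34, so that they depend on those spleens.

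The genes most like Prmt5 over the B cells of the 13 spleens, by Pearson r of log2(CPM + 1) among 5718 genes with a mean of at least 20 CPM, were Ipo5 (r = 0.95), Armc1 (0.94), Lonp1 (0.93), Trim28 (0.92) and Hspa9 (0.91). Over the 7 lymph nodes their r was 0.70, 0.60, 0.69, 0.53 and 0.72. Ipo5 encodes an importin, Lonp1 a mitochondrial protease and Hspa9 a mitochondrial chaperone. Wdr77 was at rank 190 of that order, Clns1a at rank 381 and Riok1 at rank 1043. Over the 7 lymph nodes the r of Prmt5 was 0.91 with Wdr77, 0.25 with Clns1a and 0.44 with Riok1. Among the genes most like Wdr77 were Tbl3 (r = 0.93), Ddx1 (0.92) and Eftud2 (0.92), which gave 0.83, 0.68 and 0.74 over the lymph nodes. Eftud2 encodes a spliceosome GTPase and Tbl3 a protein of ribosome assembly. These r values share libraries and depth and are given as descriptions.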

How the data were processed

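Spleens and lymph nodes were profiled with droplet 3′ scRNA-seq, 1 library for each tissue of a mouse. The authors deposited, for each library, a matrix of UMI counts, whole-number counts per gene and barcode with no normalization; the submitters' processing notes name Cell Ranger 2.0.1, Seurat 2.2.1 and GRCm38, while the matrix headers name Cell Ranger 3.1.0, and which version made the counts was not settled here. Files held 9348094 to 72440894 UMIs each.

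Barcodes with at least 1500 UMIs and at most 10% mitochondrial UMIs were kept as cells. B cells had at least 3 UMIs of Cd79a and Cd79b, no Cd3d, Cd3e or Cd3g and under 20 Jchain; plasma cells had at least 20 Jchain and no Cd3; T cells had at least 2 Cd3 UMIs, at most 1 of Cd79a and Cd79b and under 20 Jchain; myeloid cells had at least 3 UMIs of Tyrobp and Fcer1g, at most 1 of Cd79a and Cd79b, no Cd3 and no Nkg7, Klrd1 or Ncr1. No clustering and no doublet caller was used; barcodes above 2.5 times the median UMIs of their class were left out in an alternative. Counts were summed per library and class (at least 20 cells) and tested with edgeR 4.0.16 (TMM, filterByExpr, quasi-likelihood, R 4.3.3), with p-values adjusted by Benjamini and Hochberg over all genes tested and a threshold of 0.05. Genotypes were compared with all groups of a tissue in 1 fit, classes and cycle states with the library as a block, and tissues with the mouse as a block. DESeq2 1.42.0 was the alternative. Two-sided exact permutation tests were used for single values, and correlations across the 13 spleens used 100000 permutations (scipy 1.17.1). The fitting code was tested on simulated counts.

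Members, lists and rules were chosen with earlier results of these data known. All 5 members were named in every comparison, at most 4 called genes with the smallest adjusted p from each list, and the 5 genes most like Prmt5 or Wdr77; some genes that this rule picks are not reported here. Replicate numbers in the labels did not pair the libraries: deviations of same-numbered libraries correlated at -0.14 to 0.3 over 15 pairs, with 6 above 0.1. Spleens and lymph nodes of the same mouse, known from the labels, correlated at 0.27 to 0.67 over 7 pairs.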

Additional observations from a re-analysis of the deposited data

Results flagged for a closer look

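Among 65 groups of at least 4 libraries, 9 values of the members stood apart from the rest of their group by Dixon's test, where chance gives about 1 in 20. Prmt5 in T cells gave 2 of them. It was 91.9 CPM in Eµ-PRMT5/TCL1 spleen 3, where the other 3 spleens measured 29.9 to 39.7 CPM, and 140 CPM in Eµ-PRMT5/TCL1 lymph node 1, where the other 3 nodes measured 28.8 to 33.3 CPM. These are different mice. Prmt5 rested on 1076 UMIs from 1864 T cells in the first library and on 69 UMIs from 103 T cells in the other, with 7.19% and 7.77% of the cells at 3 or more UMIs. In the lymph node these were 8 cells, 1 of them with 18 UMIs, and 77 cells had none, so few cells carry its value.

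Clns1a gave 3 of them: 143 CPM in B cells of Eµ-PRMT5/TCL1 spleen 4 (others 62.9 to 75), 67.4 CPM in myeloid cells of the same spleen (others 37.3 to 42) and 93.3 CPM in T cells of Eµ-PRMT5 spleen 4 (others 49.5 to 59.6). Coprs in T cells of Eµ-PRMT5 spleen 4 was 7.56 CPM (others 1.32 to 2.78), and Coprs in myeloid cells of Eµ-TCL1 spleen 2, the spleen with the highest Coprs in B cells, was 15.7 CPM (others 3.47 to 4.48). Wdr77 was 18.5 CPM in plasma cells of Eµ-PRMT5 spleen 3 (others 14.7 to 15.1) and 28.7 CPM in myeloid cells of Eµ-PRMT5/TCL1 lymph node 2 (others 9.27 to 12.2). The 2 Coprs values and the Wdr77 value in myeloid cells rested on 6 UMIs each and that of Wdr77 in plasma cells on 25, and their 95% Poisson intervals overlapped those of other libraries of the group (10.5 to 62.5 CPM for Wdr77 in myeloid cells). The interval of Clns1a in myeloid cells, from 54.3 CPM, overlapped that of Eµ-PRMT5/TCL1 spleen 1, which rested on 19 UMIs and reached 58.3 CPM.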

How the results depend on the processing

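Leaving out 1 library gave 690 member values, of which 650 kept their direction and side of the threshold, 12 lost and 5 gained a call and 23 turned in sign. The other settings gave 486, of which 428 kept both, 18 lost and 10 gained a call and 30 turned. Causes were not tested. Coprs rests on few UMIs, and the lymph node groups hold 3 or 4 libraries.

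In the count of called genes, comparisons are named by genotype in B cells of the spleen unless said otherwise. DESeq2 called 635 genes for Eµ-PRMT5 against Eµ-TCL1, 22 for Eµ-PRMT5/TCL1 against Eµ-TCL1 and 117 for Eµ-PRMT5/TCL1 against Eµ-PRMT5, 59 in lymph nodes, 310 for lymph node against spleen, and 39 and 3 in T cells for Eµ-PRMT5 and Eµ-PRMT5/TCL1 against Eµ-TCL1. In the same order of the B-cell spleen comparisons, edgeR called 8, 1 and 0 without high-UMI barcodes, 6, 1 and 0 in cells low in the cycle lists, 8, 0 and 0 in cells low in the G2/M list (added after seeing the data), and 1, 0 and 0 with Xist as covariate. The Xist level stood in for sex, and the main fits called 16, 2 and 6. With immunoglobulin genes left out it called 62 for the first, 1 for the last and 37 for lymph node against spleen. Without a filter on low counts it called 2 for the last and 48 for lymph node against spleen. With Cd3g allowed in B cells (added after seeing the data) it called 2 for the last. Low cells only gave 2 for lymph node against spleen and 3 for T cells of Eµ-PRMT5 against Eµ-TCL1, and the Xist covariate gave 8 and 1 in T cells. The G2/M list alone gave 4154 genes between cycle states in spleens. With the label number as replicate block, 85, 0 and 0 genes were called, and 19 and 2 in T cells. With no replicate block there were 4 for lymph node against spleen, 789 between cycle states in spleens and 556 in lymph nodes. Without 1 library the counts ranged over 1 to 574 for Eµ-PRMT5 against Eµ-TCL1 (574 without Eµ-PRMT5 spleen 4), 0 to 5, 0 to 13, 0 to 11 in lymph nodes, 0 to 152 for lymph node against spleen and 0 to 14 in T cells of Eµ-PRMT5 against Eµ-TCL1.

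Member values are log2 differences. For Prmt5 in plasma against B cells, called in the report, they were -0.51 by DESeq2, -0.62 with no filter, -0.61 without immunoglobulin genes, -0.57 without high-UMI barcodes, -0.57 with no Cd79a or Cd79b UMI allowed and -0.77 to -0.49 without 1 library. Prmt5 between cycle states in spleens, not called, was 0.27 by DESeq2, 0.27 without immunoglobulin genes and 0.36 with Cd3g allowed, all called, and 0.22 to 0.31 without 1 library. In lymph nodes it was 0.43 with no replicate block, no longer called, and 0.41 to 0.63 without 1 library. Coprs in myeloid against B cells was -0.13 without high-UMI barcodes, -0.02 with no Cd79a or Cd79b UMI allowed, -0.06 with no filter and -0.12 to 0.12 without 1 library.

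Other values turned in sign and were not called in any setting named here. For Eµ-PRMT5 against Eµ-TCL1 in B cells, Clns1a was -0.01 in low cells, -0.03 in cells low in the G2/M list and -0.02 to 0.34 without 1 library. For Eµ-PRMT5/TCL1 against Eµ-TCL1, Clns1a was -0.01 to 0.28 without 1 library. For Eµ-PRMT5/TCL1 against Eµ-PRMT5, Wdr77 was 0.12 in low cells and 0.01 in cells low in the G2/M list, and Clns1a 0.10 and 0.15, and -0.23 to 0.20 without 1 library. In lymph nodes, Prmt5 was 0.05 and Riok1 -0.01 with Cd3g allowed, Riok1 was -0.08 with the Xist covariate, and without 1 library Prmt5 was -0.24 to 0.04 and Riok1 -0.06 to 0.08. For lymph node against spleen, Coprs was -0.02 with Cd3g allowed, -0.05 with no replicate block and -0.09 to 0.21 without 1 mouse, Wdr77 was -0.04 in low cells, and Clns1a -0.14 to 0.01 without 1 mouse. In T cells of Eµ-PRMT5 against Eµ-TCL1, Clns1a was -0.08 without high-UMI barcodes, -0.24 in low cells, -0.02 with the replicate block and -0.16 to 0.09 without 1 library. There Coprs was -0.16 without high-UMI barcodes, -0.01 with Xist and -0.17 to 0.23 without 1 library, and Riok1 -0.19 with the replicate block and -0.18 to 0.43 without 1 library. In T cells of Eµ-PRMT5/TCL1 against Eµ-TCL1, Riok1 was 0.21 with Xist, Wdr77 -0.10 in low cells and -0.15 to 0.28 without 1 library, and Coprs -0.02 to 0.30. Between cycle states, Riok1 was -0.01 and Coprs -0.01 with thinned cells in spleens, Coprs -0.04 to 0.23 there without 1 library, and 0.05 in lymph nodes with Cd3g allowed.

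With CPM of low cells, r was 0.65 for Prmt5 with Wdr77, 0.46 with Clns1a, 0.73 with Riok1 (called) and 0.22 with Coprs, and the cycle share gave 0.20 with Prmt5, -0.21 with Wdr77 and -0.25 with Clns1a. The share by the G2/M list alone (added after seeing the data) gave 0.49 with Prmt5 and -0.27 with Riok1.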

Other observations

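The high Prmt5 level in T cells of Eµ-PRMT5/TCL1 spleen 3 was uneven among T cells grouped by their leading T-cell receptor β variable gene (at least 2 UMIs of it), a split chosen after the values were seen. The 341 cells led by Trbv12-2 held 450 Prmt5 UMIs, or 200 CPM, and 51.3% of them had a Prmt5 UMI, at a median of 6226 UMIs a cell. Cells led by the other variable genes with at least 50 cells in that spleen ranged from 17.7 CPM for Trbv2 to 99.7 CPM for Trbv16. In lymph node 3, from the same mouse, the 689 cells led by Trbv12-2 held 86 Prmt5 UMIs, or 31 CPM, and 9.72% of them had a UMI, at a median of 3796 UMIs a cell. Trac, the constant gene of the T-cell receptor α chain, lies on the same chromosome as Prmt5, 283 kb away. Any link of this position to the Prmt5 level was not tested.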
